A study of Saccharomyces cerevisiae with 35 samples.

Results

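The 9 genes described here encode the proteins at the heart of small nucleolar ribonucleoproteins (snoRNPs) and a nucleolar partner of ribosomal RNA processing in budding yeast. They go by function, and were taken up with earlier results of these data known: 4 core proteins of box C/D snoRNPs (NOP1, NOP56, NOP58 and SNU13), 4 core proteins of box H/ACA snoRNPs (CBF5, GAR1, NHP2 and NOP10), and NSR1. They are 9 of the 5843 features in the single-cell table, and all 9 passed the filter on low counts there. The question was how their messages changed when rapamycin was added to growing yeast, when they changed, and whether cells without the receptor of the drug changed too.

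In the cell these proteins act on ribosomal RNA. Each box C/D particle wraps a guide RNA that directs the methyltransferase Nop1 (fibrillarin) to a ribose of pre-ribosomal RNA, while each box H/ACA particle directs the pseudouridine synthase Cbf5 (dyskerin in humans) to a uridine; a few snoRNAs serve cleavage of the precursor. Nsr1 resembles vertebrate nucleolin and takes part in processing of the small-subunit precursor. The kinase complex TORC1 keeps genes of this class active in rich medium, and rapamycin, bound to the proline isomerase made from FPR1, inhibits it.

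Single cells came from the FY4/5 background, grown in YPD at 30 °C as a pool in a flask, so fpr1 deletion cells and wild-type cells met the drug together. The groups were fpr1 deletion cells in 6 successive intervals of 10 min with 200 ng/mL rapamycin, fpr1 deletion cells in 2 intervals of 10 min before it, and wild-type cells in the same 6 treated and 2 untreated intervals, each in 2 cultures. Bulk samples were wild type only, from 3 separate cultures, taken at 0 min and at 10 times up to 120 min after 200 ng/mL rapamycin. The pool held 6 deletion and 72 wild-type strain codes; the sources used here give neither how the deletion was made nor whether codes are independent clones.

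All 9 upstream regions held a copy of the PAC core, and 8 of 9 also held the RRPE core; both are promoter elements long known from yeast ribosome biogenesis genes. PAC was searched as GATGAG and RRPE as GAAAAATTT, on both strands, from 250 bases before to 50 bases after each annotated gene start in the RefSeq genome (assembly R64, the sacCer3 sequence). Of 6001 protein-coding genes 20.4% held PAC, 6.08% held RRPE and 3.08% held both. In the stretches that follow, 5′ to 3′ on the strand of the gene, capitals mark those matches, and their reverse complements appear as CTCATC and AAATTTTTC. They are shown as a description of the sequences, in which NOP10 alone held no match to the RRPE letters. Whether these elements bear on the changes below was not tested.
NOP1, chrIV:427122-427180, plus strand: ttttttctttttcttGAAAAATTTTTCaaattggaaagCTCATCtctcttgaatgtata
NOP56, chrXII:545952-546011, plus strand: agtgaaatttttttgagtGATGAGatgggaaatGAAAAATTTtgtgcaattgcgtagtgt
NOP58, chrXV:898456-898515, minus strand: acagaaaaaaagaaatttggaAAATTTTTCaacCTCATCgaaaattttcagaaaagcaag
SNU13, chrV:101730-101789, plus strand: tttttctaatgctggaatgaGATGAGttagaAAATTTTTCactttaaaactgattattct
CBF5, chrXII:505934-506008, plus strand: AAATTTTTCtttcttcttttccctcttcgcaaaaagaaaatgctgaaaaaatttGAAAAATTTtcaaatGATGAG
GAR1, chrVIII:283398-283457, minus strand: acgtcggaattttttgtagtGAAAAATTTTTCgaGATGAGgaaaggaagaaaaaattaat
NHP2, chrIV:87373-87432, plus strand: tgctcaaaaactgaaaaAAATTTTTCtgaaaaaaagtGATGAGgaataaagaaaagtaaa
NOP10, chrVIII:241524-241583, plus strand: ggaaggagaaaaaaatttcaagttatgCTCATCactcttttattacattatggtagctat
NSR1, chrVII:807821-807879, minus strand: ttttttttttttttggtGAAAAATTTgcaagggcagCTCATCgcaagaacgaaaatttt

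In NOP1 and GAR1 the RRPE letters read on both strands, and those 2 matches overlap. Every match began between 227 and 102 bases before the gene start. In the 8 promoters with both elements, 2 bases (GAR1) to 11 bases (NOP1 and NHP2) separated the nearest pair, with a median of 7.5. Among the other 177 protein-coding genes with both elements the gap ran from 0 to 233 bases, with a median of 15.0. No match to the RRPE letters in NOP10 says only that these letters are not in this window. A match is a description of the sequence and not of a bound factor.

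Depth differed between the sums. Deletion sums, which add the unique molecular identifiers (UMIs) of all cells of a genotype in a library, held 1501368 to 5191196 UMIs from 444 to 911 cells. Wild-type sums held 3993298 to 69114350 UMIs from 1693 to 14688 cells. FPR1 itself, the check of the genotype labels, was found at 13.6 to 98.9 CPM (library totals, no TMM) in deletion cells, against 915 to 1824 CPM in wild-type cells of the same libraries. Libraries shared few cell barcodes: 3646 of 169649 occurred in more than 1 library, and no pair shared more than 0.648% of the smaller. The library of 50 to 60 min in culture 1 stood apart: deletion cells supplied 56.5% of its UMIs, against 6.10% in culture 2, and its sum of 3993298 UMIs was the smallest of the wild type, with 24 UMIs of NSR1, 56 of GAR1 and 86 of NOP1. With no other cell type in these cultures, FPR1 was the marker checked.

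All 9 genes fell in wild-type cells, 8 of them beyond the threshold of the test already in the first 10 min. At 50 to 60 min the falls ran from 7.62-fold (NOP10) to 172-fold (NSR1). Levels are given in CPM (counts scaled to the same total in each sum, from UMIs in single-cell data) after TMM scaling, a normalization that assumes most genes do not change, and "called" means a Benjamini-Hochberg (BH) adjusted p under 0.05 in edgeR's quasi-likelihood test over 5549 genes. In the interval of 0 to 10 min, 8 of 9 were called lower, where 9.5% of all genes tested were; with library totals in place of TMM 4 of 9 were, and with sums scaled by cell number 0 were. In each of the 5 later intervals all 9 were called lower, against 28.5%, 32.4%, 34.0%, 35.1% and 36.0% of all genes in turn, and all 9 stayed called under each alternative run. The median log2 change of the 9 was -0.56, -2.85, -4.83, -5.53, -5.15 and -5.09 in the 6 intervals in turn, whereas the median over all genes stayed between -0.01 and 0.11.

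**Figure D1:**
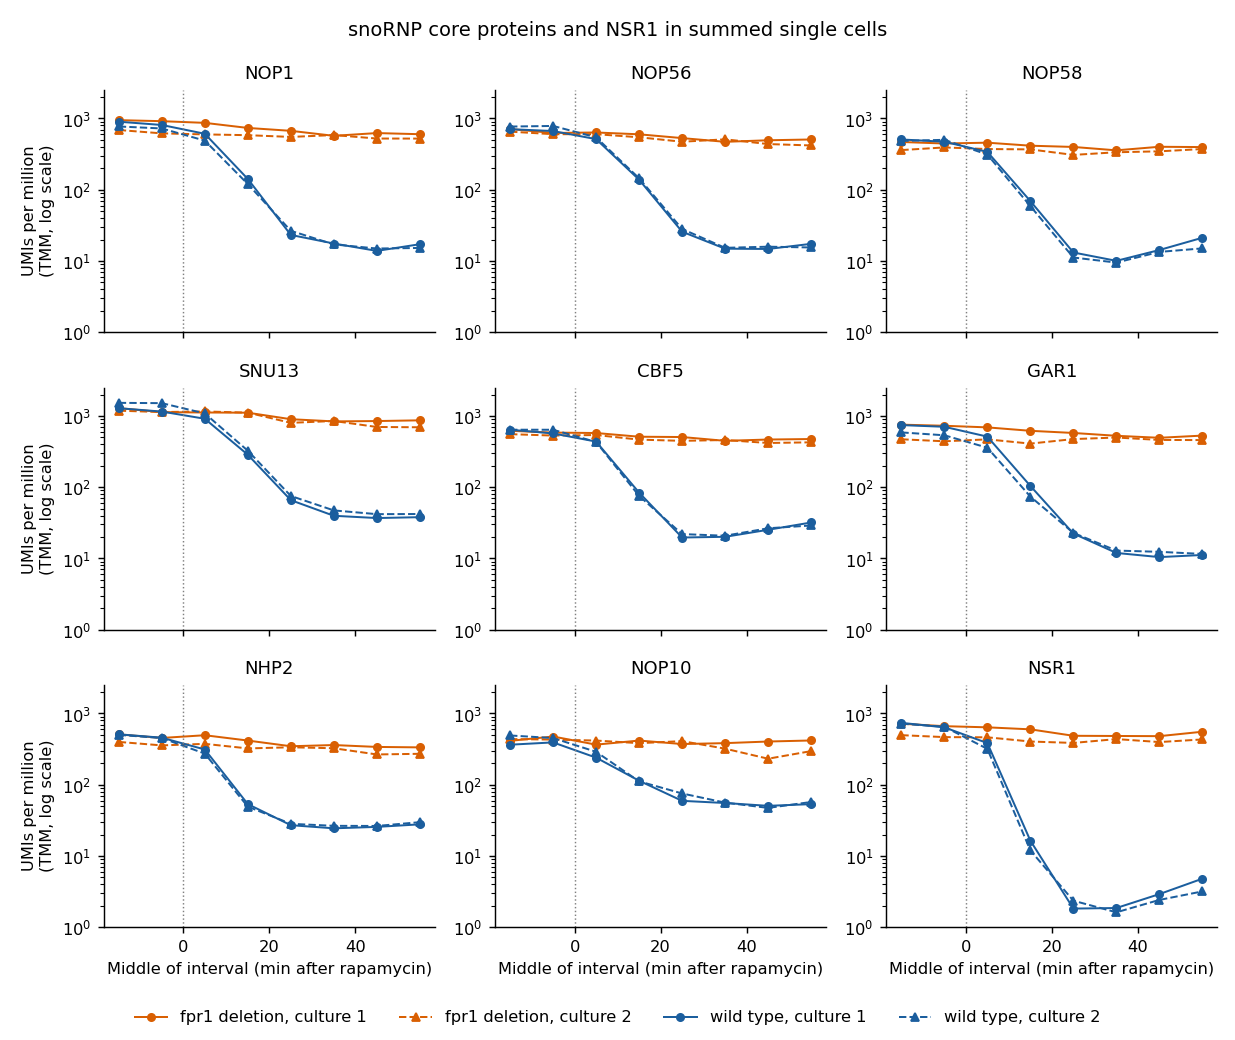
CPM after TMM scaling (log axis) of the 9 genes against the middle of each 10 min interval, for fpr1 deletion sums (orange) and wild-type sums (blue) in cultures 1 (circles, solid) and 2 (triangles, dashed); the dotted line marks the addition of rapamycin. At 50 to 60 min NSR1 is at 554 and 432 CPM in deletion cells, against 4.80 and 3.18 CPM in wild-type cells, and NOP10 at 418 and 296 CPM against 53.4 and 57.2 CPM.

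Of the box C/D proteins, NOP1 (YDL014W, chrIV:427364-428347, plus strand), the methyltransferase, had 901 and 811 CPM in culture 1 and 772 and 724 CPM in culture 2 before the drug. It then had 610 and 489 CPM at 0 to 10 min, 142 and 120 CPM at 10 to 20 min, and 23.2 and 26.5 CPM at 20 to 30 min, culture 1 first in each pair. By 50 to 60 min it had 17.2 and 15.2 CPM, on 86 and 1078 UMIs. Every treated value lay below every untreated value. The log2 change was -0.54 (SE 0.17) at 0 to 10 min and -5.64 (SE 0.24) at 50 to 60 min, with BH-adjusted p = 0.0278 and 1.4e-15 by edgeR's quasi-likelihood test.

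NOP56 (YLR197W, chrXII:546097-547611, plus strand), which with Nop58 forms the scaffold that holds the guide RNA, had 666 to 786 CPM in the 4 untreated sums. It had 513 and 544 CPM at 0 to 10 min, 138 and 145 CPM at 10 to 20 min and 14.9 and 15.3 CPM at 30 to 40 min. The cultures differed little from each other at each interval, and 17.4 and 15.5 CPM were left at 50 to 60 min, a log2 change of -5.49 (SE 0.14, edgeR, BH-adjusted p = 7.83e-19).

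NOP58 (YOR310C, chrXV:896825-898360, minus strand), the other scaffold protein, had 471 to 507 CPM untreated, 340 and 312 CPM at 0 to 10 min, and 69.2 and 58.8 CPM at 10 to 20 min. Its lowest values, 10.0 and 9.49 CPM, came at 30 to 40 min, after which both cultures were higher, at 21.2 and 15.0 CPM in the last interval. The change at 50 to 60 min was -4.81 (SE 0.18, edgeR, BH-adjusted p = 2.21e-16).

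SNU13 (YEL026W, chrV:101943-102323, plus strand), which binds the kink-turn of box C/D RNAs and also belongs to the U4 particle of the spliceosome, had 1153 to 1528 CPM untreated. It had 914 and 1086 CPM at 0 to 10 min, 286 and 325 CPM at 10 to 20 min and 65.8 and 75.4 CPM at 20 to 30 min. At 10 to 20 min 23.4% and 21.4% of its untreated level was left, a share that among the 9 was exceeded by NOP10 alone. It ended at 38.0 and 42.1 CPM, 3.12% and 2.77% of untreated, with a log2 change of -5.09 (SE 0.17, edgeR, BH-adjusted p = 3.45e-17).

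The 4 box H/ACA proteins spread more widely. GAR1 (YHR089C, chrVIII:282681-283298, minus strand), a glycine- and arginine-rich protein needed for pseudouridylation, had 745 and 705 CPM in culture 1 and 588 and 536 CPM in culture 2 before the drug. At 0 to 10 min it had 513 and 359 CPM, below the untreated values of the same culture in both, but the pooled change of -0.56 (SE 0.23) was not called (edgeR, BH-adjusted p = 0.0946). By 50 to 60 min 11.2 and 11.6 CPM were left, a log2 change of -5.81 (SE 0.32, edgeR, BH-adjusted p = 2.46e-13), the lowest estimate among the 8 core proteins but only 0.17 (SE 0.40) below that of NOP1. With the culture as a block GAR1 was called at 0 to 10 min (edgeR, BH-adjusted p = 0.00836), and so it was by DESeq2 (BH-adjusted p = 0.0489). The deposited files do not say whether counting used strand; no annotated coding gene overlaps any of the 9, and the gene after GAR1 faces it from 298 bases away.

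CBF5 (YLR175W, chrXII:506134-507585, plus strand), the pseudouridine synthase, had 569 to 642 CPM untreated, 437 and 432 CPM at 0 to 10 min and 84.0 and 75.6 CPM at 10 to 20 min. It had 19.7 and 21.98 CPM at 20 to 30 min, nearly the same at 30 to 40 min (20.1 and 20.8 CPM), and 31.98 and 29.0 CPM at the end. CBF5 had the smallest SE of the 9, and its change at 0 to 10 min, -0.52 (SE 0.09), was called with BH-adjusted p = 0.000318 (edgeR), the smallest of the 9; at 50 to 60 min it was -4.36 (SE 0.12).

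NHP2 (YDL208W, chrIV:87512-87982, plus strand), an RNA-binding protein related to Snu13, had 452 to 510 CPM untreated and 312 and 273 CPM at 0 to 10 min. At 10 to 20 min 53.4 and 49.2 CPM were left, 11.05% and 10.3% of untreated, the smallest share among the core proteins in that interval. From 20 to 30 min on its 8 sums lay between 24.4 and 29.8 CPM, and its change at 50 to 60 min was -4.05 (SE 0.17, edgeR, BH-adjusted p = 1.72e-15).

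NOP10 (YHR072W-A, chrVIII:241664-241840, plus strand), a short protein that sits against Cbf5, fell least. It had 364 to 491 CPM untreated, 240 and 290 CPM at 0 to 10 min, 114 and 111 CPM at 10 to 20 min and 53.4 and 57.2 CPM at 50 to 60 min. That left 14.1% and 12.1% of the untreated level, and a log2 change of -2.94 (SE 0.20, edgeR, BH-adjusted p = 8.41e-12). Its early change of -0.68 (SE 0.18) at 0 to 10 min stood beside -0.59 to -0.45 for the 4 box C/D proteins.

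NSR1 (YGR159C, chrVII:806412-807656, minus strand) had the largest fall of the 9 in every treated interval, and of all 5549 genes tested in the 3 intervals between 20 and 50 min, where its log2 changes were -8.32, -8.65 and -8.05 in turn. It had 739 and 638 CPM in culture 1 and 718 and 651 CPM in culture 2 before the drug, and 384 and 318 CPM at 0 to 10 min, 55.8% and 46.5% of untreated. At 10 to 20 min it had 16.4 and 12.0 CPM, and at 30 to 40 min 1.86 and 1.62 CPM, on 35 and 127 UMIs. The last pair was 0.270% and 0.236% of the untreated level. In the last interval NSR1 had 4.80 and 3.18 CPM. Its log2 changes were -0.96 (SE 0.20) at 0 to 10 min, -5.60 (SE 0.27) at 10 to 20 min and -7.58 (SE 0.31) at 50 to 60 min, the last with BH-adjusted p = 1.54e-15 (edgeR).

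**Figure D2:**
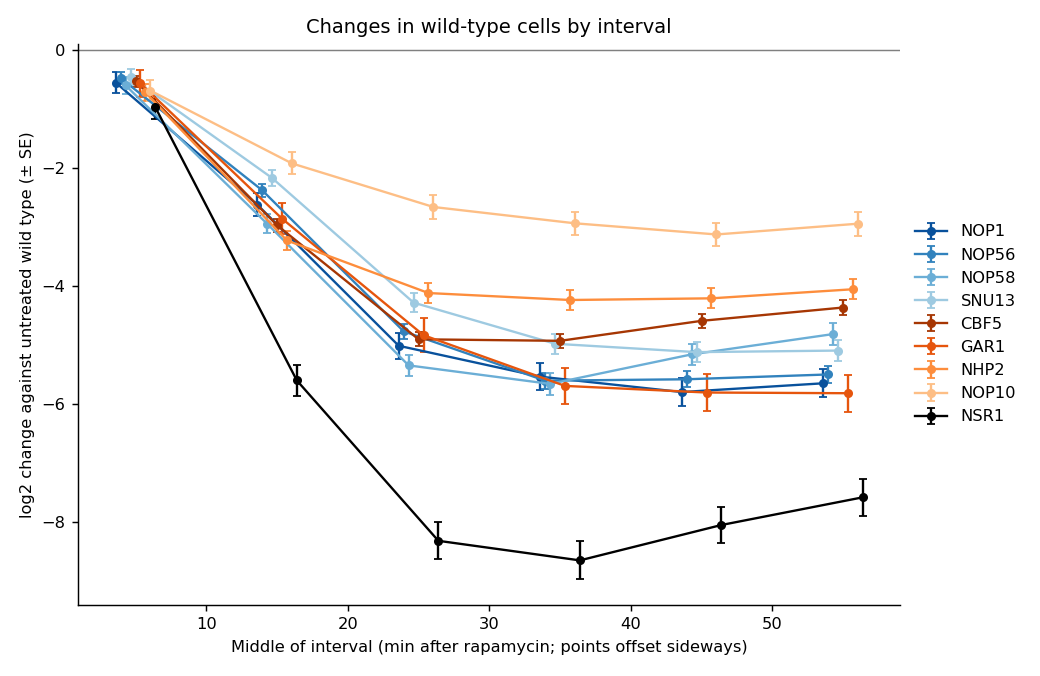
log2 change against untreated wild-type cells (± SE, edgeR fit) of the 9 genes at each treated interval, box C/D proteins in blues, box H/ACA proteins in oranges and NSR1 in black; points are offset sideways. NSR1 lies below the other 8 from 10 to 20 min on, and NOP10 lies above them, at -2.94 against -7.58 for NSR1 at 50 to 60 min.

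Ordered by their change at 50 to 60 min, the 9 ran NSR1, GAR1, NOP1, NOP56, SNU13, NOP58, CBF5, NHP2, NOP10. Of the 8 pairs of neighbours in this order, 3 differed by more than 2 SE of the difference, taking the estimates as independent: NSR1 from GAR1 (by -1.76, SE 0.45), NOP58 from CBF5 (by -0.45, SE 0.22) and NHP2 from NOP10 (by -1.11, SE 0.27). The other 5 neighbouring pairs did not, so neighbours among GAR1, NOP1, NOP56, SNU13 and NOP58 cannot be ordered by it. By particle, the 4 box C/D proteins had a median change of -5.29 (range -5.64 to -4.81) and the 4 box H/ACA proteins one of -4.21 (range -5.81 to -2.94). The ranges overlap, with GAR1 at one end of the box H/ACA range and NOP10 at the other.

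Each interval was also set against the one before it, to see when the messages moved. On entering 0 to 10 min, 6 of 9 genes were called lower (6.31% of all genes), the 3 others being NOP1, SNU13 and GAR1. Entering 10 to 20 min all 9 were called lower (20.1% of all genes), with steps from -4.63 for NSR1 to -1.23 for NOP10. All 9 fell again on entering 20 to 30 min (14.1% of all genes), with steps from -2.72 to -0.74. At 30 to 40 min 3 of 9 were still called lower (5.14% of all genes): NOP56 by -0.84 (SE 0.12), GAR1 by -0.86 (SE 0.27) and SNU13 by -0.70 (SE 0.15). By edgeR none was called lower at 40 to 50 min (2.32% of all genes) or at 50 to 60 min (0.288%). Of these 2 steps the earlier had 2 genes with an unadjusted p under 0.05, CBF5 and NOP58, both with positive steps, and the last had 0; DESeq2 called 0 of the 9 in these 2 steps. The first count fell to 1 without the library of -10 to 0 min in culture 2 and to 0 without that of 0 to 10 min in culture 2. The count at 30 to 40 min fell to 1 without the culture 1 library of that interval or the culture 2 library of 20 to 30 min.

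Late in the course some of the genes were higher again, a comparison chosen after the values had been seen. Between 50 to 60 min and 30 to 40 min, NSR1 rose by 1.07 (SE 0.30, edgeR, BH-adjusted p = 0.0186), NOP58 by 0.85 (SE 0.17, BH-adjusted p = 0.00146) and CBF5 by 0.56 (SE 0.11, BH-adjusted p = 0.00123). These 3 of 9 compare with 7.46% of all genes called higher, and the other 6 were between -0.12 and 0.18 and not called. NSR1 had 4.80 and 3.18 CPM at 50 to 60 min, against 1.86 and 1.62 CPM at 30 to 40 min, so both cultures were higher late. CBF5 was higher in both cultures too, with 31.98 and 29.0 CPM at 50 to 60 min, against 20.1 and 20.8 CPM at 30 to 40 min.

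The amounts are small beside the untreated levels, and other values moved with them. In culture 1 the share of library UMIs from deletion cells was 56.5% at 50 to 60 min, against 22.3% at 30 to 40 min, while in culture 2 it was 6.10% and 7.75%. Leaving that culture 1 library of 50 to 60 min out gave a difference of 0.88 for NSR1 (edgeR, BH-adjusted p = 0.104), 0.61 for NOP58 (BH-adjusted p = 0.0495) and 0.49 for CBF5 (BH-adjusted p = 0.0312). NSR1 was also not called without either library of 30 to 40 min (edgeR, BH-adjusted p = 0.0538 without culture 1 and 0.23 without culture 2), nor without the top 5% of cells (0.0566) or with only the groups compared (0.055); with sums scaled by cell number none of the 3 was called. At 50 to 60 min the wild-type level was 0.866% (culture 1) and 0.736% (culture 2) of the deletion level for NSR1, 6.74% and 6.80% for CBF5, and 12.8% and 19.3% for NOP10. For NOP58 it was 5.34% (culture 1) and 4.03% (culture 2) of the deletion level. The part that RNA from deletion cells has in these late values was not tested.

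In fpr1 deletion cells the same 9 genes changed far less. In the edgeR test none of the 9 was called at 0 to 10 min or at 10 to 20 min, and no gene at all was called lower in these intervals (0.0% of 5549 in each); 0 and 1 of the 9 had an unadjusted p under 0.05, and DESeq2 called 0 in both. Later 1 of 9 was called lower at 20 to 30 min (1.93% of all genes), 3 of 9 at 30 to 40 min (2.67%), 4 of 9 at 40 to 50 min (6.67%) and 4 of 9 at 50 to 60 min (6.42%). The last 4 were SNU13, NHP2, NOP56 and CBF5. At 20 to 30 min the culture as a block gave 4 of 9, and leaving out any one of the 6 libraries of that comparison gave 0.

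SNU13 had 869 and 694 CPM in deletion cells at 50 to 60 min, against 1132 to 1289 CPM in their 4 untreated sums, and a log2 change of -0.60 (SE 0.13, edgeR, BH-adjusted p = 0.00491). NHP2 had 334 and 272 CPM in treated deletion cells, against 356 to 509 CPM untreated, with a change of -0.50 (SE 0.14, edgeR, BH-adjusted p = 0.0252). NOP56 changed by -0.48 (SE 0.10) and CBF5 by -0.34 (SE 0.09). For each of these 4 genes both values at 50 to 60 min lay below all 4 untreated ones. The same held for NOP1, which was not called, with 601 and 522 CPM against 618 to 948 CPM untreated. NSR1 had 554 and 432 CPM in treated deletion cells, against 718 and 663 CPM (culture 1) and 496 and 466 CPM (culture 2) untreated, and was not called (log2 change -0.24, SE 0.20).

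These late changes in deletion cells depend on the scaling and on single libraries. With sums scaled by cell number all 9 log2 changes at 50 to 60 min were positive, from 0.089 to 0.57, and 0 were called lower; with library totals 0 were called and NOP58 was at 0.072. When the culture 2 library of 50 to 60 min was left out none was called, and without either untreated library of culture 1 SNU13 and NOP56 alone were. FPR1 in deletion sums stood at 1.03% to 7.91% of the wild-type level of the same library, and at 3.18% and 4.10% at 50 to 60 min. These values served as an estimate of the share of wild-type RNA in each sum. With its own share taken out of each deletion sum, 2 of 9 were called at 50 to 60 min.

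The test of the difference between genotypes sets the 2 responses against each other. At 0 to 10 min the fall was smaller in deletion than in wild-type cells for 2 of 9 genes (2.49% of all genes were called in this direction): NHP2, by 0.73 (SE 0.19, edgeR, BH-adjusted p = 0.0286), and CBF5, by 0.49 (SE 0.13, BH-adjusted p = 0.0336). NHP2 had 495 and 375 CPM in deletion cells at 0 to 10 min, against 312 and 273 CPM in wild-type cells of the same libraries. The other 7 had differences from 0.40 (SNU13) to 0.88 (NSR1) that were not called. Of the 9 genes, 7 had an unadjusted p under 0.05 (edgeR), all but NOP1 and GAR1. Both calls were lost without the library of 0 to 10 min of either culture, and without either untreated library of culture 2, where 0 of 9 were called; with the culture as a block 4 of 9 were called, NSR1 and NOP58 beside these 2.

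In each of the 5 later intervals the difference was called for all 9, against 20.4%, 24.6%, 27.5%, 29.2% and 30.8% of all genes in turn. At 10 to 20 min it ran from 1.78 (NOP10) to 5.37 (NSR1), and at 50 to 60 min from 2.64 (NOP10, SE 0.25) to 7.33 (NSR1, SE 0.34). In the last interval the highest BH-adjusted p among the 9 was 6.47e-09 (edgeR). NOP1, for example, had 601 and 522 CPM in deletion cells at 50 to 60 min, against 17.2 and 15.2 CPM in wild-type cells.

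Before the drug no difference between the genotypes was called for these genes. None of the 9 was called between untreated deletion and untreated wild-type cells, where 0.541% of all genes were called in either direction, and the log2 differences (deletion minus wild type) ran from -0.24 (NOP58) to 0.05 (NOP10). By edgeR 2 of 9 had an unadjusted p under 0.05, NOP56 at -0.18 (SE 0.08) and NOP58 at -0.24 (SE 0.11), and DESeq2 called 0. The cultures differed in this. In culture 2 the untreated wild-type level of all 9 genes was above the deletion level of the same library, from 105% (NOP10) to 145% (NSR1) of it. In culture 1 it ran from 82.7% (NOP10) to 108% (NOP58). The interval from -10 to 0 min against -20 to -10 min, which holds no drug, gave changes of at most 0.18 in size, and none was called in either genotype by edgeR or DESeq2, nor had any an unadjusted p under 0.05 (edgeR).

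Per cell, the same fall showed as a loss of UMIs from most cells, given here as a description with no test. After thinning each cell to 1000 UMIs, 95.4% (culture 1) and 93.9% (culture 2) of deletion cells at 50 to 60 min had a UMI of at least 1 of the 8 core genes, against 22.9% and 28.6% of wild-type cells. Without thinning the shares were 96.1% and 96.9% in deletion cells, and 38.2% and 58.1% in wild-type cells. In untreated libraries 92.8% to 99.0% of deletion cells and 97.8% to 98.5% of wild-type cells had such a UMI after thinning. The share in wild-type cells fell to 94.4% and 93.3% at 0 to 10 min, then to 57.0% and 58.2% at 10 to 20 min and 24.7% and 32.1% at 20 to 30 min.

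NSR1 UMIs were found in 36.4% and 32.1% of thinned deletion cells at 50 to 60 min, against 0.692% and 0.529% of wild-type cells. Deletion cells also held UMIs of FPR1, the gene they lack, and the source of these UMIs (free RNA, doublets or other) was not tested. FPR1 gave a UMI in 3.61% and 7.64% of thinned deletion cells of the same libraries. Median depth there was 6234 and 3246 UMIs per deletion cell, and 1729 and 2856 per wild-type cell. In wild-type cells the late shares of all but NOP10 (9.11%) lay below that level in culture 2, and those of NOP1, NOP56, NOP58, GAR1 and NSR1 in culture 1, with NHP2 at the same 3.61%; shares at or below it are not read as expression per cell. FPR1 is an abundant message from the other genotype, so its share is no matched floor for these genes, and the part of free RNA in their late shares was not tested.

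**Figure D3:**
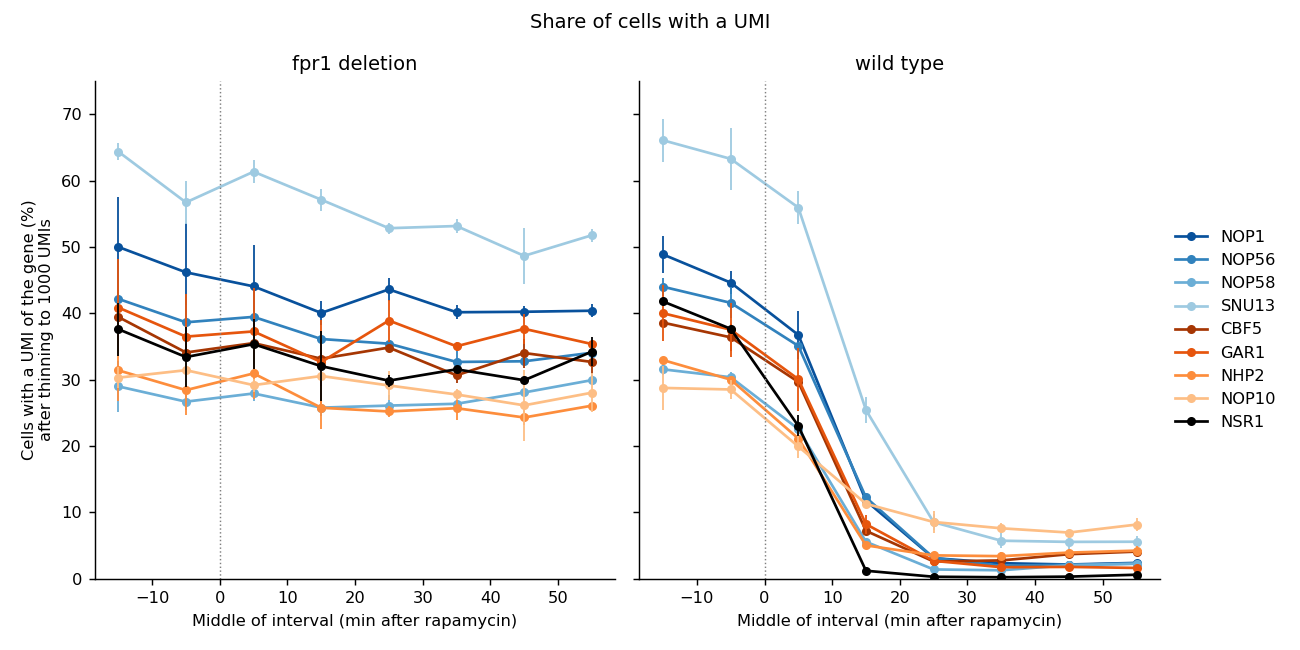
Percent of cells with at least 1 UMI of each gene after thinning to 1000 UMIs, against the middle of each interval, in fpr1 deletion cells (left) and wild-type cells (right); points are means of 2 cultures and bars reach to both. In deletion cells no share is under 20.7% in either culture, and in wild-type cells at 20 to 30 min none is over 10.2%.

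The fall was found in every wild-type strain code of the pool. At 50 to 60 min each of the 9 genes was lower than in the untreated cells of the same strain code in 72 of 72 wild-type codes, by CPM of library totals. NSR1 ran from 0.0 to 38.5 CPM over the 72 codes at 50 to 60 min, with 3 codes at 0 counts, against 276 to 593 CPM untreated. Among the 6 deletion codes SNU13, NOP1, NOP56, CBF5 and NHP2 were lower at 50 to 60 min in 6 of 6, NOP10 in 5 of 6, GAR1 in 4 of 6, NSR1 in 3 of 6 and NOP58 in 2 of 6. Codes share libraries, so they are not replicates of the treatment.

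Before the drug 7 wild-type codes had lower levels of most of these genes. They are the codes with under 0.01% of UMIs from mitochondrial genes (0.002% to 0.00328%, against 0.0185% to 0.0236% in the other 65), a split seen in the data and given with no test. By CPM of library totals, with no TMM, NSR1 stood at 276 to 327 CPM in those 7, against 508 to 593 CPM in the others, and SNU13 at 722 to 857 against 1073 to 1162 CPM. For 8 of the 9 genes the values of the 7 codes lay below those of all 65 others, and NOP10 overlapped, at 311 to 333 against 321 to 370 CPM.

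The proteins that build and modify the particles moved less uniformly. In a list of 13 assembly and modification factors, 10 were called lower, 1 higher and 2 not called in wild-type cells at 50 to 60 min, where 36.0% of all genes were called lower and 41.9% higher, with a median log2 change of -2.05, beside -5.09 for the 9 genes and 0.11 for all genes tested. At 10 to 20 min 10 of 13 were called lower too, with a median of -1.50; 9 genes were called lower at both times, NAF1 early alone and TGS1 late alone. RRP9 is counted in this list although it is a protein of the U3 particle itself. It had 9.99 and 7.33 CPM at 50 to 60 min, against 63.1 to 70.1 CPM in the 4 untreated sums, a log2 change of -3.04 (SE 0.17). BCD1, which box C/D snoRNAs need to accumulate, had 6.40 and 4.59 CPM at 50 to 60 min, against 27.7 to 43.3 CPM untreated, a change of -2.78 (SE 0.37). HMT1, the arginine methyltransferase that modifies Nop1, Gar1 and Nsr1, changed by -2.54 (SE 0.14) at 50 to 60 min and by -2.98 (SE 0.13) at 10 to 20 min.

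NAF1, which escorts box H/ACA particles before Gar1 joins them, took a different course. It had 38.2 to 43.6 CPM untreated, 13.1 and 11.3 CPM at 10 to 20 min and 27.2 and 26.3 CPM at 30 to 40 min. In the last interval it had 64.2 and 47.0 CPM, above all 4 untreated sums. The change was -1.76 (SE 0.13) at 10 to 20 min and 0.41 (SE 0.12, edgeR, BH-adjusted p = 0.00368) at 50 to 60 min. NAF1 was thus called lower early and higher late in wild-type cells. With sums scaled by cell number the late value, 0.38, was not called. The genotype difference (deletion minus wild type) was called at 10 to 20 min, at 1.72 (edgeR, BH-adjusted p = 2.0e-07). At 50 to 60 min it was -0.34 and not called (BH-adjusted p = 0.346), so the late rise was not separated from deletion cells. TAH1 and PIH1, of the R2TP chaperone complex, were not called at any interval with TMM, but at 50 to 60 min PIH1 was called higher with the culture as a block (0.64, edgeR, BH-adjusted p = 0.00211), and both were with library totals (0.92 for TAH1 and 1.31 for PIH1), where the median over all genes was 0.94. The ATPases of R2TP, RVB1 (-2.27, SE 0.13) and RVB2 (-1.52, SE 0.11), were called lower at 50 to 60 min.

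SNU13 also serves the spliceosome, so 12 other proteins of the U4/U6.U5 tri-snRNP were listed beside it. Of these, 4 were called lower (36.0% of all genes), 3 higher (41.9%) and 5 not at all in wild-type cells at 50 to 60 min, so the share called lower is near that of all genes; with the culture as a block 6 were called lower. Their median change was -0.28, against -5.09 for SNU13. The extremes among those called were SNU23 at -1.37 (SE 0.17) and BRR2, the helicase that unwinds U4 from U6, at -0.93 (SE 0.19) on the low side, and PRP3 at 0.65 (SE 0.19) on the high side. SNU23 had 7.59 and 11.1 CPM at 50 to 60 min, against 25.5 to 26.8 CPM untreated. The direction of this list depended on the scaling: with library totals, which moved the median over all genes to 0.94, its median was 0.59, with 7 called higher and 1 lower, and that of the assembly list was -1.18. In the promoter windows defined above, PAC was in 7 of 13 promoters of the assembly list and 5 of 12 of the tri-snRNP list, and both elements were in 2 of 13 and 1 of 12. In the 250 bases before the start alone, PAC was in 9 of 9 promoters of the members, 6 of 13, 1 of 12 and 17.0% of all protein-coding genes, and both elements in 8 of 9, 1 of 13, 0 of 12 and 2.85%. In deletion cells none of the 13 and none of the 12 was called at 50 to 60 min (edgeR), with medians of 0.05 and 0.30. There 1 of the 13 and 0 of the 12 had an unadjusted p under 0.05, DESeq2 called 1 (RVB1) and 0, and with sums scaled by cell number 2 and 8 were called higher; with the culture as a block 1 of the 13, PIH1, was called higher.

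**Figure D4:**
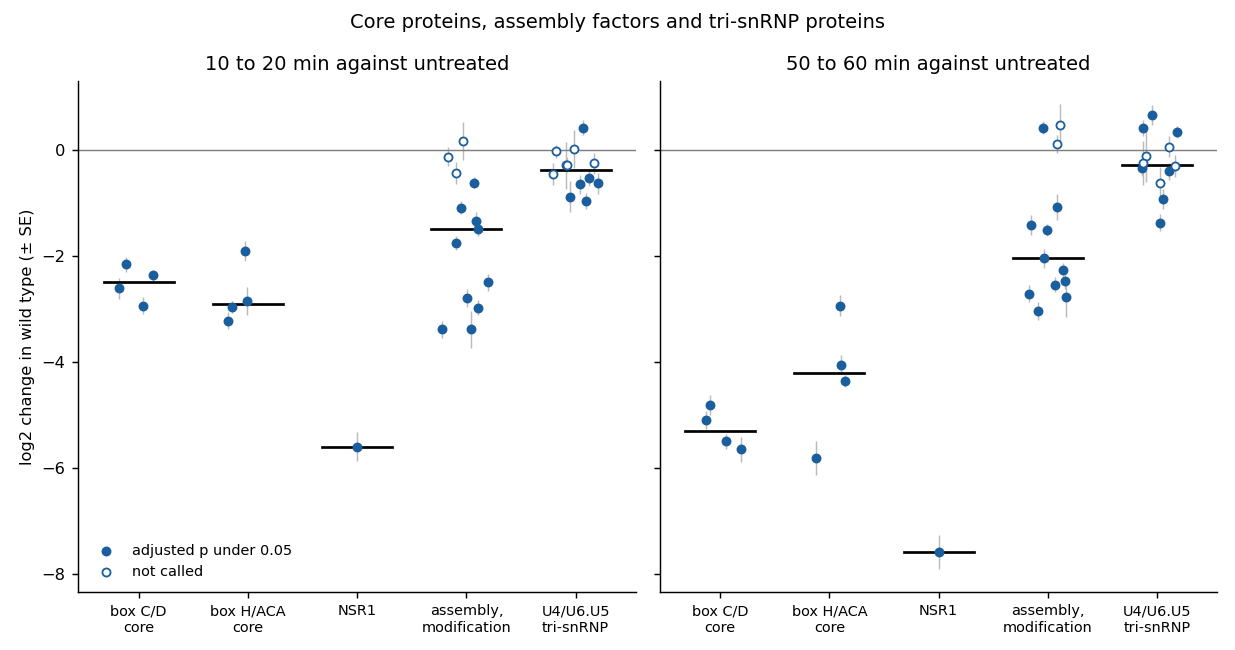
log2 change in wild-type cells against untreated (± SE, edgeR fit) at 10 to 20 min (left) and 50 to 60 min (right) for each gene of 5 lists; filled points have a BH-adjusted p under 0.05, bars are list medians, and points are spread sideways for sight. The medians at 50 to 60 min are -5.29 (box C/D), -4.21 (box H/ACA), -7.58 (NSR1), -2.05 (assembly and modification) and -0.28 (tri-snRNP).

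Across the 16 wild-type sums the 9 profiles were much alike: Pearson's r of TMM log2 CPM over the 36 pairs ran from 0.963 (SNU13 with NHP2) to 0.999 (NOP56 with SNU13), with a median of 0.982, a description over points that share libraries and time. Among 2080 other genes with at least 50 CPM untreated, those most like the mean profile of the 8 core proteins were DIM1, MAP1, NEW1, BRX1 and NMD3, with r from 0.998 to 0.999 over the 16 sums. Those most like NSR1 were RPA34, LSG1, DRS1, ERB1 and RPA49, with r from 0.997 to 0.999. Likeness of profile is not likeness of size: MAP1 changed by -2.33 at 50 to 60 min and BRX1 by -6.68. By Spearman's rho 1 of the 5 genes most like the core profile and 2 of the 5 most like NSR1 were the same.

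In the 3 bulk wild-type cultures 4 of the 7 genes that could be tested were called lower at 15 min and 5 to 7 at each later time, in libraries of 3800 to 111293 counts that were normalized separately from the single cells. In bulk RNA fewer cells and less RNA per cell cannot be told apart. The filter on low counts left 910 genes and 7 of the 9; NOP58 and CBF5 did not pass. By edgeR with BH adjustment 4 of 7 were called lower at 15 min (8.9% of genes tested), 6 at 30 min (18.6%), 5 at 45 min (22.2%), and all 7 tested at 60 min (24.3%), 90 min (23.8%) and 120 min (25.7%). None was called at 2.5, 5, 7.5 or 10 min, where 0, 0, 1 and 2 of 7 had an unadjusted p under 0.05; DESeq2 called 0 at these 4 times, and with the culture as a block edgeR called 1 at 10 min.

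GAR1 was the best measured, with 15, 123 and 23 counts in cultures 1 to 3 at 0 min, 48, 81 and 98 at 10 min, 65, 30 and 38 at 15 min and 6, 9 and 8 at 30 min. Scaled by depth it had 1726, 3711 and 1337 CPM at 0 min, 668, 750 and 800 CPM at 15 min, 73.6, 159 and 291 CPM at 30 min and 103, 246 and 355 CPM at 60 min. From 15 min on every culture lay below all 3 values at 0 min. The bulk mean at 0 min was 2258 CPM for GAR1 and 286 CPM for SNU13. In untreated wild-type single-cell sums the means were 643 CPM for GAR1 and 1370 CPM for SNU13. Why the relative levels differ between the 2 kinds of data was not tested. The log2 change of GAR1 was -1.67 (SE 0.42, edgeR, BH-adjusted p = 0.00515) at 15 min and -3.45 (SE 0.52, BH-adjusted p = 1.56e-07) at 60 min.

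The other genes rest on few counts, given here over all 3 libraries of a time (73245 counts at 0 min and 110703 at 60 min) with exact 95% intervals that cover counting error only. At 60 min NSR1 had 2 counts, against 31 at 0 min, and its rate was 4.27% of that at 0 min (interval 0.495% to 16.8%). NOP1 had 3 counts at 60 min, against 39, or 5.09% (1.01% to 16.01%). NOP56 had 1 count at 60 min, against 31, or 2.13% (0.0524% to 12.8%). These intervals overlap each other, so the order of NSR1, NOP1 and NOP56 cannot be read from the bulk data. NOP10 had 4 counts, against 20, or 13.2% (3.29% to 39.5%), SNU13 3 against 21, or 9.45% (1.81% to 31.7%), and NHP2 3 against 12, or 16.5% (3.00% to 61.3%). The genes left out of the test were CBF5 and NOP58. CBF5 had 8 counts at 0 min, 27 at 15 min, 3 at 30 min, 3 at 60 min and 7 at 120 min. Its rate was 126% of that at 0 min at 15 min (55.8% to 322%), 16.8% at 30 min (2.87% to 70.04%), 24.8% at 60 min (4.24% to 103%) and 27.9% at 120 min (8.62% to 88.1%), so the interval lay below 100% at 30 and 120 min and held it at 15 and 60 min. For NHP2 the interval held 100% at 15 min too, at 81.1% (39.5% to 176%). NOP58 had 3 counts at 0 min and 1 at 60 min, too few to show a difference at this depth.

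The calls at 15 min in bulk depend on single cultures: 1 of the genes was called without culture 1, 0 without culture 2 and 2 without culture 3. At 45 min 2 were called without culture 2. SNU13 was not called at 45 min (-1.55, SE 0.72), having been called at 30 min (-2.82, SE 0.74), and its counts were 3, 4 and 3 at 45 min and 3, 1 and 3 at 30 min.

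**Figure D5:**
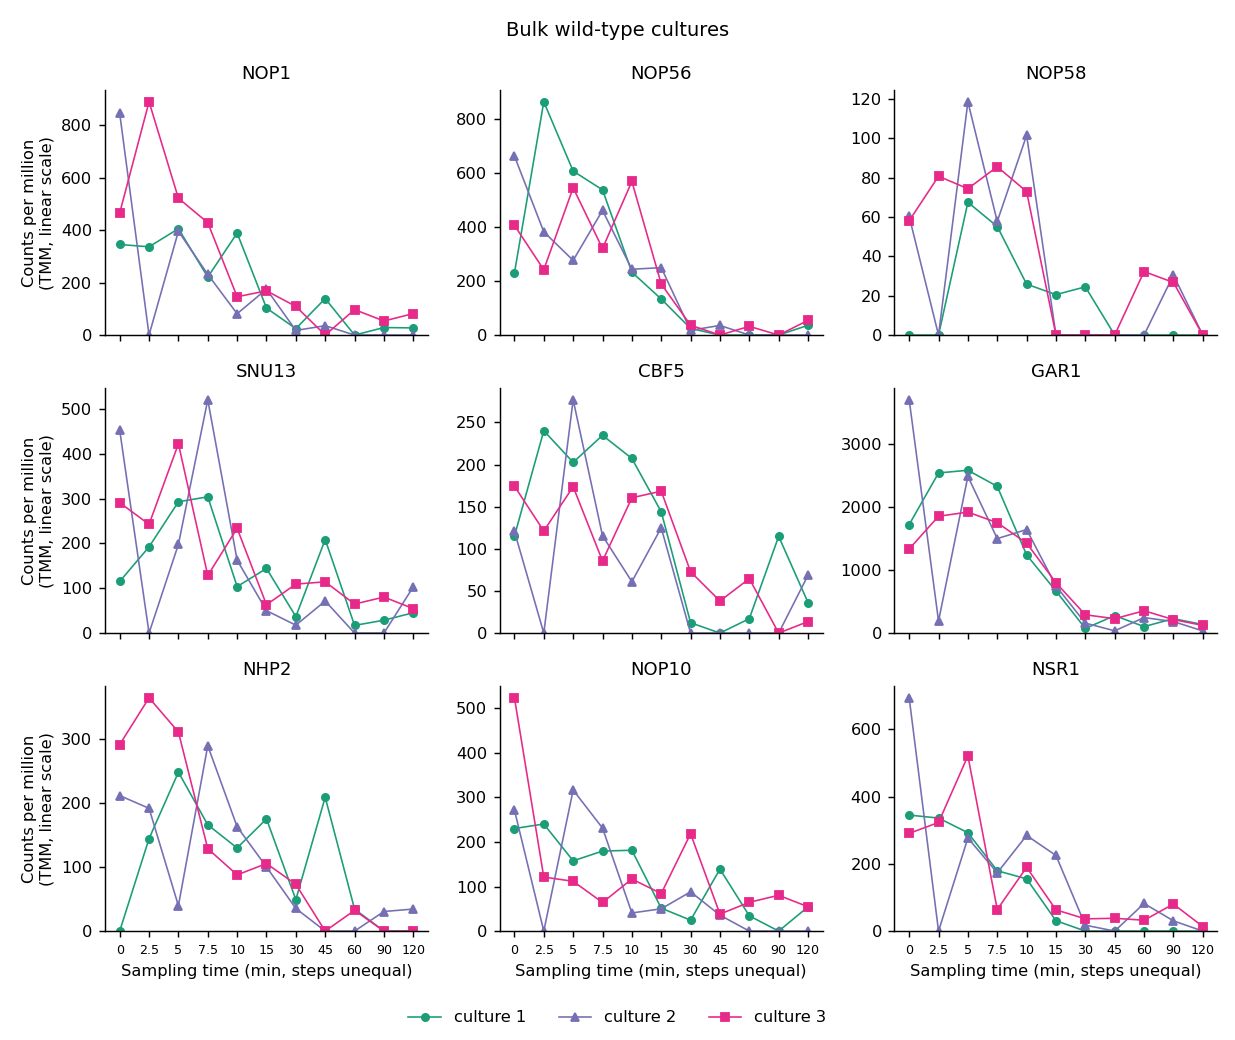
CPM after TMM scaling (linear axis from 0, own scale in each panel) of the 9 genes in 3 bulk wild-type cultures at 11 sampling times, spaced evenly and not to scale. Levels scatter widely up to 10 min, GAR1 falls in all 3 cultures to 668 to 800 CPM at 15 min, and single points at 0 are libraries with no count of the gene.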

How the data were processed

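The deposited single-cell values are raw UMI counts per cell and gene, each cell carrying the genotype, strain code, interval and culture given by the authors. The deposited bulk table holds raw counts of genes in each library. Per the submitters' processing notes, bcl2fastq, kallisto 0.46.1 and bustools 0.39.3 were used with the sacCer3 build; no source used here gives the cell filter. Cells came from 10x Genomics 3' libraries and bulk RNA from 3'-end libraries primed on poly(A), per the labels' protocols; whether bulk counts are of UMIs or reads is not given there. The files hold 173347 cells (the study's text gives 173361), each with 500 or more UMIs. Doublets were not called. The genotype PCR libraries were not analysed here.

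UMIs were summed over cells per genotype and library (32 sums), filtered with filterByExpr, normalized by TMM, with factors of 0.788 to 1.62, and fitted in edgeR 4.0.16 (robust quasi-likelihood, 1 coefficient per genotype and interval, 16 residual degrees of freedom, biological coefficient of variation 14.1%). Treated intervals were contrasted with the mean of both untreated intervals, and the genotype difference is the interaction, deletion minus wild type. Bulk counts were fitted likewise (33 libraries, 22 residual degrees of freedom, coefficient of variation 29.7%). The fit was run on simulated counts drawn independently for each sum, which does not cover deviations shared by sums of a culture. DESeq2 1.42.0 was an alternative.

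The replicate number is the culture, which pairs samples by design; deviations from group means correlated between sums of culture 1 with a median of 0.229 in deletion cells (range 0.031 to 0.402) and 0.259 in wild-type cells (range -0.031 to 0.838). The model without a block is the one reported. It takes the sums as independent, although sums of a culture share that culture and both genotypes share each library. Its SEs and p-values do not allow for this. The 9 genes and both comparison lists were chosen with earlier results of these data known. From each list the text names the largest rise and the 2 largest falls among genes called at 50 to 60 min in wild type, and HMT1; RVB1, RVB2, TAH1 and PIH1 were named after their values were seen. Cells were thinned to 1000 UMIs for shares, which left out 607 deletion and 7353 wild-type cells. Promoter windows and gene coordinates come from RefSeq R64.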

Additional observations from a re-analysis of the deposited data

Results flagged for a closer look

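At 50 to 60 min the change in deletion cells differed from that in wild-type cells for all 9 genes by the test of the interaction (edgeR, BH-adjusted p at most 6.47e-09), with log2 differences, deletion minus wild type, of 2.64 for NOP10, 3.55 for NHP2, 4.02 for CBF5, 4.49 for SNU13, 4.70 for NOP58, 5.01 for NOP56, 5.15 for NOP1, 5.54 for GAR1 and 7.33 for NSR1. At 0 to 10 min the same test called NHP2 (0.73) and CBF5 (0.49) among the 9, and 7 of the 9 had an unadjusted p under 0.05. In the 4 untreated wild-type sums 1 value of CBF5 lay far from the other 3: it had 569 CPM at -10 to 0 min in culture 1, against 640 to 642 CPM in the others. Chance marks about 1 in 20 groups in this way, and 18 groups (9 genes in 2 genotypes) were looked at.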

How the results depend on the processing

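The 9 genes stayed called lower in wild-type cells, and in the genotype difference, in each of the 5 intervals from 10 min on under every alternative run, and each log2 change at 10 to 20 and 50 to 60 min kept its sign. Elsewhere calls moved, and the cause was not tested. Depth limits most the bulk genes other than GAR1, which rest on few counts, and in single cells the late wild-type values of culture 1 (24 UMIs of NSR1 at 50 to 60 min).

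In wild-type cells at 0 to 10 min the 8 genes called lower became 4 when library totals replaced TMM and 0 when sums were scaled by cell number. The step to 0 to 10 min (6 called) gave 1 with library totals, 0 scaled by cells and 3 with only the groups compared. The step to 30 to 40 min (3) gave 1 with library totals and 0 scaled by cells.

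In deletion cells library totals, scaling by cells and a fit of only the groups compared each left 0 called at 20 to 30, 30 to 40, 40 to 50 and 50 to 60 min, where the reported counts are 1, 3, 4 and 4. With the last untreated interval alone as baseline these 4 counts were 0, 0, 1 and 2, and with the wild-type RNA share removed 0, 0, 2 and 2. At 20 to 30 min 2 were called with RLE size factors, with no filter and without the top 5% of cells, and 3 by DESeq2. Scaled by cells, the log2 changes in deletion cells at 50 to 60 min turned positive: NOP1 0.22, NOP56 0.20, NOP58 0.57, SNU13 0.089, CBF5 0.34, GAR1 0.46, NHP2 0.21, NOP10 0.40 and NSR1 0.49. With library totals NOP58 was at 0.072.

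The genotype difference at 0 to 10 min (2 called higher) gave 0 with library totals, scaled by cells, without the top 5% of cells, with the last untreated interval alone and with only the groups compared, and 5 with each library as a block.

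With the culture as a replicate block, 4 genes were called lower in deletion cells at 20 to 30 min, 4 in the genotype difference at 0 to 10 min, and 1 in bulk at 10 min. In the assembly list at 50 to 60 min it called 2 genes higher in wild type in place of 1, and 1 in deletion cells in place of 0. The block moved no other count of the 9 genes called by over 1.5 times.

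The late rise in wild type was chosen after seeing the data, and scaled by cells 0 of its 3 genes were called. NSR1 also lost its call there without the top 5% of cells and with only the groups compared. Among genes not called in it, NOP56 was at -0.030 scaled by cells, SNU13 at 0.0019 without the culture 2 library of 30 to 40 min (-0.26 without that of culture 1), and NOP10 at 0.00096 with RLE, 0.036 with library totals, 0.00075 by DESeq2 and 0.023 without the culture 1 library of 50 to 60 min (-0.091 without that of culture 2). In bulk at 15 min (4 called) 0 were called with no filter, and NHP2 was at 0.047 without culture 3 and -1.08 without culture 1.

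Leaving out 1 library at a time gave 6 to 8 genes in wild type at 0 to 10 min; 0 to 2 in the genotype difference then; 0 in deletion cells up to 30 min, then 0 to 2, 0 to 5 and 0 to 5; steps of 0 to 7, 9, 8 to 9, 1 to 2, 0 and 0; and 2 to 3 in the late rise. In bulk, leaving out a culture gave 0 to 1 genes at 10 min, 0 to 2 at 15 min, 4 to 5 at 30 min, 2 to 6 at 45 min, 5 at 60 min, 5 to 7 at 90 min and 6 to 7 at 120 min.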
